A study of Mus musculus with 4 samples.

Results

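Ruvbl2 CUT&Tag was carried out on mouse bone marrow cells, and the regions described here are the 200 peaks of highest fold in each of the 4 deposited peak lists. Peaks were selected on fold, the height of a peak over the background set by the peak caller, among peaks on chromosomes 1 to 19 in the mouse build mm10. The 800 chosen peaks, of 833600 autosomal peaks in all, were merged wherever they overlapped by 1 bp, which gave 475 sites. Of these sites, 49 were in all 4 top lists, 127 were in 2 or 3 of them and 299 were in 1.

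Hematopoietic stem cells (HSCs) were sorted as CD48-CD150+LSK cells from Nup214fl/+ mice, and leukemia stem cells (LSCs) as c-Kit+ cells, Lin- and Sca-1-, that carried both CD16/32 and CD34, from Nup214fl/+ mice with disease driven by MLL-AF9. There were 2 libraries of each. All 4 libraries therefore carried 1 floxed Nup214 allele, and no library without it was compared. MLL-AF9 is a fusion oncogene that causes acute myeloid leukemia in mice, and the LSC gate is also the gate of normal granulocyte-monocyte progenitors. Input was 2000 to 5000 cells, amplified with 17 to 20 PCR cycles per the labels' protocol, which names no control library, gives a goat anti-rabbit secondary antibody and does not state the host of the Ruvbl2 antibody. The labels do not say whether replicates came from separate mice, so differences between libraries may be technical, and the cell type label reads hematopoietic stem cell for all 4.

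Ruvbl2 is an AAA+ ATPase that forms rings with Ruvbl1. The rings are subunits of chromatin remodelers (SRCAP, INO80 and p400/Tip60) that slide or exchange nucleosomes and acetylate histones around gene starts, and they also work in a chaperone complex for large protein assemblies. In CUT&Tag, an antibody tethers the Tn5 transposase to chromatin, and the DNA cut out around the bound protein is amplified and sequenced.

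The peak lists held 161655 and 286107 peaks for HSC replicates 1 and 2, and 216077 and 210541 for LSC replicates 1 and 2. Libraries are given in this order throughout. None of the 6 HSC markers checked, Kit, Procr, Slamf1, Hlf, Mecom and Meis1, had a top-list peak at either end, and neither did any of the 8 LSC and progenitor markers, such as Mpo, Elane, Spi1 and Cebpa. Among all deposited peaks, 3, 2, 1 and 3 of the HSC markers and 7, 8, 7 and 7 of the LSC and progenitor markers had a peak at an end. The highest fold at the latter was 49.7, 43.6, 104 and 63.1. The sorted identity thus cannot be read from the top lists.

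The promoters shown next belong to sites in all 4 lists that lay at genes. They are 5 of the 13 listed starts at these sites, chosen to show the motifs named below, and each sequence is the stretch of 250 bases before an annotated start on the gene's own strand (RefSeq, GRCm38.p6, the same assembly as mm10). Capitals mark the CCAAT box (CCAAT or its complement ATTGG), the SP/KLF box (GGGCGG or CCGCCC), the E-box (CACGTG) and the YY1 core (AAGATGGC). They are Eif4a1 at chr11:69672424-69672673 on the minus strand, Eif5a at chr11:69921387-69921636 on the minus strand, Zfp143 at chr7:110061452-110061701 on the plus strand, Srgap2 at chr1:131527362-131527611 on the minus strand and Fam72a at chr1:131527653-131527902 on the plus strand.
Eif4a1: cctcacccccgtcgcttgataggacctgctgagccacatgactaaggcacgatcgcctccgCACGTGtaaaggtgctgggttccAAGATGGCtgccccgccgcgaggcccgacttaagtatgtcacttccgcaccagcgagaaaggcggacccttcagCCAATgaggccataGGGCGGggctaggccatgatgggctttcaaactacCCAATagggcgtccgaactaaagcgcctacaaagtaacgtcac
Eif5a: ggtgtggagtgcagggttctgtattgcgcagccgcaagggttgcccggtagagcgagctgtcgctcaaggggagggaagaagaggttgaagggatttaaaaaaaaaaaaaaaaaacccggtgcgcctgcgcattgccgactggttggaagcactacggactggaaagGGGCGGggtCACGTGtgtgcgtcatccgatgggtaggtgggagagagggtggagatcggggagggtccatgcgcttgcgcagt
Zfp143: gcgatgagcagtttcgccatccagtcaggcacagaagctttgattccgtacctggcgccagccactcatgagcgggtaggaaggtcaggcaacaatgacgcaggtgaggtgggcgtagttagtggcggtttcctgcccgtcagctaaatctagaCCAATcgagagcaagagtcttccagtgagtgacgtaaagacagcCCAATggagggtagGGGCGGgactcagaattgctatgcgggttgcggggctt
Srgap2: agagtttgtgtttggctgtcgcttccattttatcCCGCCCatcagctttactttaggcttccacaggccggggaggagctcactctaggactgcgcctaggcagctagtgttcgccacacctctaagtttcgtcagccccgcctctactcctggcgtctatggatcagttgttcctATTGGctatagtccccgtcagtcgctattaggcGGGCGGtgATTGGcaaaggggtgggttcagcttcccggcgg
Fam72a: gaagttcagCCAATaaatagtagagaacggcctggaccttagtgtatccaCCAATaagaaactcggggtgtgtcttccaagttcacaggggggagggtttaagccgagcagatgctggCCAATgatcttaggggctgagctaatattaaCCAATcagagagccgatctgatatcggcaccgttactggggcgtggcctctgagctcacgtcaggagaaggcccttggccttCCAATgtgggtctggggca
The Fam72a stretch held 5 CCAAT boxes and no SP/KLF box, and the Srgap2 stretch on the other strand held 2 of each. Eif4a1 held 2 CCAAT boxes, 1 SP/KLF box, 1 E-box and 1 YY1 core. Zfp143 held 2 CCAAT boxes and 1 SP/KLF box, and this Eif5a start had 1 SP/KLF box and 1 E-box close together. Of the 5 listed Eif5a starts, 3 had none of the marked motifs in this stretch, nor did 1 of the 2 of Dcaf11. The Fbrs stretch had 2 SP/KLF boxes.

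The fold fell steeply with rank in every library. Rank 1 had a fold of 34553, 61857, 125093 and 31027, and rank 200 had 90.5, 62.1, 143 and 88.1. The peaks just outside, at rank 201, had 90.5, 62.1, 143 and 87.9, so the limit fell in a continuous stretch, with 3 and 2 peaks tied at it in the HSC lists. The median over all autosomal peaks was 13.4, 5.99, 11.3 and 9.11. Folds over 500 were found at 33, 25, 55 and 23 peaks, every one of them in the top lists.

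**Figure D1:**
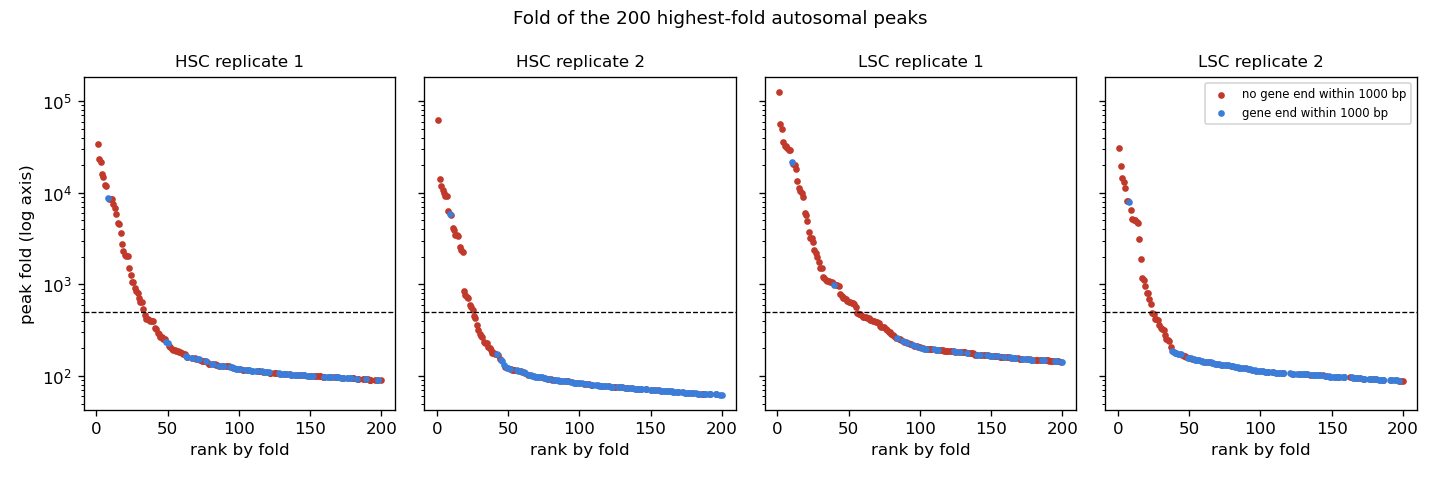
Fold (log axis) against rank for the 200 highest-fold autosomal peaks of each library; blue points have an annotated end of a protein-coding gene within 1000 bp, red points do not, and the dashed line is a fold of 500. Nearly all points above the line are red, and blue points fill the shoulder below it, most densely in the replicate 2 libraries.

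Peaks with a fold over 500 were rarely at genes: a protein-coding gene end, meaning either annotated end within 1000 bp, was near 1 of 33, 1 of 25, 2 of 55 and 1 of 23 of them. Peaks with a fold of 500 or less were at a gene end in 40.1%, 65.7%, 24.8% and 73.4% of cases, so in both replicate 1 libraries most of them were not at one either. Apart from Wls and Lars2, the strongest gene-end peak had 233, 150, 259 and 189, so 500 is not a boundary between peaks at genes and others. Of all autosomal peaks, 5.78%, 6.83%, 5.95% and 7.87% were at a gene end, and of the whole top lists 68, 116, 38 and 131 of 200 (34%, 58%, 19% and 65.5%) were. The top lists thus lay at gene ends more often than the deposited peaks at large, through their members with a fold of 500 or less.

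Shared sites were mostly not at protein-coding genes. Gene bodies here are those of protein-coding genes, and intergenic means outside them, so sites on lncRNA genes or pseudogenes can count as intergenic. Of the 49 sites in all 4 lists, 35 were intergenic, 7 were in a gene body away from the ends and 7 were at a gene end (14.3%, Wilson 95% interval 7.10 to 26.7%, counting error only). That share was 2.70% with 100 peaks per library, 26.8% with 500, 32.7% with the ends of genes of every type and 37.5% without LSC replicate 1, where sites had to be in 3 lists. At a gene end were 73 of the 127 sites in 2 or 3 lists (57.5%, 48.8 to 65.7%) and 155 of the 299 in 1 list (51.8%, 46.2 to 57.4%). Extreme folds were unevenly spread over these classes. Class and extreme fold both come from the ranked fold, and a site in more lists has more values that can pass 500. The unevenness is thus partly set by the rule and is given as a description. A fold over 500 in at least 1 library was found at 34 of the 49, 15 of the 127 and 7 of the 299. Without these, 6 of 15, 72 of 112 and 155 of 292 sites were at a gene end, which is 40%, 64.3% and 53.1%.

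**Figure D2:**
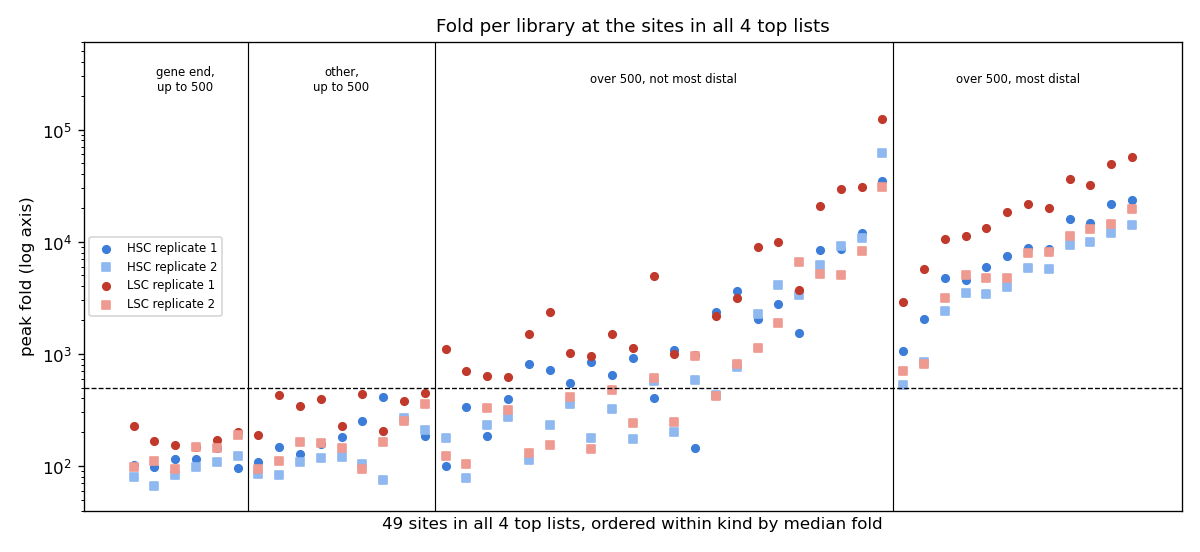
Fold in each library (log axis) at the 49 sites in all 4 top lists, grouped as gene-end sites up to 500, other sites up to 500, sites over 500 that are not the most distal peak of their chromosome, and those that are; Wls is in the last group. LSC replicate 1 (dark red) is highest at 44 of the 49 sites, and all 4 points of each most distal site are above the dashed line at 500.

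The strongest site of every library was the same, chr2:98666230-98667342. It had 34553 and 61857 in HSCs and 125093 and 31027 in LSCs, with widths of 1109 to 1112 bp in all 4. The nearest protein-coding gene, Lrrc4c, was 1034558 bp away. Another 3 sites lay within a few kilobases of it. The one at chr2:98662228-98663255 had folds of 11895, 10822, 30589 and 8197, and chr2:98664876-98665229 had 8462, 6256, 20732 and 5176. The weakest of the group, chr2:98663689-98664050, had 190, 93.6, 621 and 38.1 and missed the LSC replicate 2 list. These 4 neighbouring sites had the same order of strength in every library.

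A group of 12 of the 49 shared sites was the most distal deposited peak of its chromosome. They were on chromosomes 1, 2, 3, 7, 10, 11, 12, 13, 14, 16, 18 and 19, and this property was examined after the sites had been seen. All 12 had a fold over 500 in all 4 libraries, from 524 to 56608. The median was 8042, 4828, 19246 and 6449, and LSC replicate 1 was highest at all 12. Summits of the 4 libraries lay within 48 bp of each other at each, with a median spread of 15 bp. Of all 34 shared sites over 500, 23 had summits within 50 bp, so close summits were not particular to the distal sites. The strongest of the 12 was chr14:124801059-124802265, 123373 bp from Fgf14, with 23518, 14209, 56608 and 19408. Next were chr7:145340272-145341474, 16213 bp from Mrgprd, with 21533, 11884, 49763 and 14518, and chr12:120028419-120029044, 7177 bp from Tmem196, with 14726, 10021, 32274 and 12998. On chromosome 18 the site chr18:90601448-90602653 had 15887, 9318, 36311 and 11307. On 15 of the 19 chromosomes the most distal deposited peak was among the sites of any class. Within 3.5 Mb of the chromosome start lay 4 of the 49 shared sites. Of the top 200 peaks, 5.5%, 3%, 5.5% and 3% lay there, against 0.46%, 0.39%, 0.51% and 0.41% of all autosomal peaks. Chromosome lengths were not used here, so the distance to the end of the assembly is not given. Repeat annotation, lists of excluded regions and the sequences of the sites over 500 were not used here either, so their overlap with repeats was not measured.

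Wls, which encodes the carrier that brings Wnt ligands to the cell surface, was the only gene with an end at one of these 12 sites. Its site, chr3:159939210-159939696, lay 544 bp past the gene's last base (chr3:159839650-159938666). The folds were 8810, 5881, 21521 and 7876, and the summit was at the same base in all 4 libraries, 99932 bp downstream of the listed Wls start. It is therefore at the end of Wls and not at its promoter.

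Values of the other 7 distal sites follow. The site chr16:98107002-98107783 had 8562, 5726, 20170 and 8176, and chr19:61331045-61331580 had 7522, 3929, 18322 and 4774. The sites at chr2:182012603-182013241 and chr13:120320368-120321655 had 5933, 3452, 13384 and 4719, and 4540, 3498, 11278 and 5021. Those at chr1:195371132-195371993 and chr11:121981634-121982557 had 4729, 2400, 10552 and 3164, and 2044, 843, 5770 and 808. The weakest of the 12, chr10:130592825-130595014, overlapped the ferritin pseudogene Ftl1-ps2 and had 1068, 524, 2895 and 699. HSC replicate 2 was lowest at 11 of the 12 sites.

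Several extreme sites overlapped sequences annotated as ribosomal RNA-like or as pseudogenes. The site chr17:39842987-39848846 covered Rn18s-rs5, an 18S ribosomal RNA related sequence, with 403, 571, 4975 and 605, so LSC replicate 1 stood apart there. The site chr1:24611537-24616182 covered the pseudogenes Gm10222 and Gm10925 and had 1521, 3375, 3740 and 6543. It was the only one of the 49 at which LSC replicate 2 was highest. The mitochondrial chromosome, outside the rule, had its highest fold at 3734, 9006, 13615 and 15130, also with LSC replicate 2 highest and HSC replicate 1 lowest. The widest site was chr9:2999991-3038335, which held peaks up to 38345 bp wide and had 2059, 2282, 9029 and 1126. The miRNA gene Mir101c is annotated there. The site chr14:19415710-19419703 had 8623, 9168, 29478 and 5028, with a width of 3934 bp in HSC replicate 1 and 3994 bp in the others.

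The remaining sites over 500 in all 4 lists that lay in or near genes had uneven levels. Smo, the signal transducer of the Hedgehog pathway, held a site in its body: chr6:29747648-29749568 had 1073, 200, 986 and 246 and overlapped the pseudogene Gm13717. Within Cdk8, the kinase gene of the Mediator complex, chr5:146260978-146261369 had 100, 177, 1093 and 122. Within Myo3a, an unconventional myosin gene, chr2:22588664-22590197 had 187, 233, 636 and 329. The lncRNA site chr17:13550043-13553209 in 2700054A10Rik had 3659, 770, 3178 and 813, and chr13:74528428-74531131 at the pseudogene Gm20590 had 2342, 433, 2186 and 418. At Smo, 2700054A10Rik and Gm20590 both replicate 1 libraries were above both replicate 2 libraries, and HSC replicate 1 was the highest of the 4.

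The other shared sites over 500 were between protein-coding genes. The strongest, chr9:35305215-35305938 at the lncRNA Gm33838, had 2789, 4142, 9937 and 1888. Near Nkx2-6, a homeobox gene 9084 bp away, chr14:69161983-69162718 had 649, 320, 1506 and 479. The site chr4:153153026-153153554 at the lncRNA Gm31055 had 719, 230, 2365 and 153, and chr3:149052092-149052946, 62996 bp from Adgrl2, had 807, 113, 1496 and 129. Near Aadac, an esterase gene, chr3:60044820-60046015 had 842, 178, 959 and 143, and at the lncRNA Gm36684 chr17:13305935-13306590 had 920, 174, 1129 and 242. At the last 5 of these sites both replicate 1 libraries were above both replicate 2 libraries.

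A different order was seen at chr12:97061432-97061792, 1140495 bp from Galc, with 145 in HSC replicate 1 and 590, 975 and 963 in the others. The sites chr12:93576811-93577314, chr10:3111100-3117164 and chr13:13860606-13861357 had 544, 357, 1027 and 414, then 394, 275, 624 and 316, and then 338, 78.0, 705 and 104. LSC replicate 1 was again highest at each of these 4 sites.

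The 9 shared sites with a fold of 500 or less away from gene ends were few but varied. In the immunoglobulin heavy chain locus Igh, chr12:113423892-113425510 had 183, 120, 227 and 143, while the B cell markers Cd79a and Pax5 had no top peak. Both had a peak at an end in every library except LSC replicate 1, which had none, and the highest fold was 11.2, 10.7 and 13.6 in the 3 libraries with one. Whether B cells had a part in the Igh site was not tested. Near Ly6c2, a surface antigen gene of myeloid and lymphoid cells 21107 bp away, chr15:75085502-75087054 had 147, 83.7, 432 and 111. Within Sfi1, a centrosome gene, chr11:3183574-3200041 had 109, 85.2, 188 and 93.0 and covered the pseudogene Fau-ps2.

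The rest were between protein-coding genes or in the bodies of Mepe, Ppp1r9a and Myo3a. Mepe is a bone matrix gene, and Ppp1r9a encodes an actin-binding phosphatase regulator. Mepe (chr5:104330295-104332432) had 251, 103, 441 and 94.4, and Ppp1r9a (chr6:4923521-4924922) had 156, 117, 399 and 159. The second site in Myo3a, chr2:22587265-22588329, had 186, 209, 445 and 357. The site chr12:54709588-54715221, 13689 bp from Eapp, covered the small nuclear RNA gene Gm22634 and had 411, 75.0, 207 and 164. The sites chr10:3109280-3110501 near 9230019H11Rik and chr1:195241323-195241893 near Cr2 had 268, 268, 376 and 252, and 129, 107, 340 and 165. LSC replicate 1 was highest at 8 of the 9 sites.

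A fold over 500 did not mean the same number of libraries everywhere. Of 56 such sites, 20 passed 500 in all 4 libraries, 3 in 3, 14 in 2 and 19 in 1. There was no peak of any strength in at least 1 other library at 17 of the 56. HSC replicates 1 and 2 lacked a peak at 8 and 9 of them, LSC replicate 1 at 1 and LSC replicate 2 at 13. The sites were intergenic in 45 cases, in a gene body in 9 and at a gene end in 2, Wls and Lars2.

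Some extreme sites were found in both replicate 1 libraries and in neither replicate 2 library. Within Chl1, a neural cell adhesion gene, chr6:103649041-103649321 had 12216 in HSC replicate 1 and 32602 in LSC replicate 1, at rank 6 and rank 5. No peak overlapped it in either replicate 2 list. The same held for chr12:3109855-3110124, with 6809 and 29273, and for chr14:86198518-86199143, with 2100 and 6019. In all, 8 of the 56 sites lacked a peak in both replicate 2 libraries, and none lacked one in both replicate 1 libraries. Some of these 8 lacked a peak in HSC replicate 1 too, and so had one in LSC replicate 1 alone. The reverse case with the highest folds was chr5:151733985-151734700, the most distal peak of chromosome 5, with 724 and 1162 in the replicate 2 libraries, 22.4 in HSC replicate 1 and no peak in LSC replicate 1. The deposited peak names also go by replicate number, with 1 naming scheme for both replicate 1 lists and another for both replicate 2 lists. What the replicate numbers stand for is not stated.

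The height of the extreme peaks was also set against their width. The fold values were whole multiples of a step in each library, from which the number of fragments over the summit (pileup) was obtained. It was 126415, 330508, 683530 and 146513 at rank 1, and 330, 331, 781 and 415 at rank 200. In 27 peaks at 16 sites, 244 to 1167 bp wide, the pileup was above the number of different start and end pairs that fragments over the summit could have inside the peak. These were 7, 3, 16 and 1 peaks per library, all with a fold over 500, and no other autosomal peak of any library was among them. The pileup is the ranked fold in other units, so that all 27 had a fold over 500 is largely set by the selection. It is not a separate sign. The largest excess was at Chl1 in LSC replicate 1, where a pileup of 178144 stood against 17184 pairs, a ratio of 10.4. Fragments that reach past a peak's edges are not in that number. The comparison takes the pileup as a count of whole fragments with both ends read, and the peak caller's setting for this was not checked. Peaks over 500 held 8.72%, 8.36%, 16.5% and 6.93% of the summed summit pileup of all autosomal peaks.

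Top peaks were wider than the deposited peaks at large, and those over 500 were narrower than the rest of the top list in every library. The median width of the top 200 was 709, 1467, 532 and 1294 bp, against 394, 462, 333 and 453 bp over all autosomal peaks. Peaks over 500 had medians of 549, 782, 470 and 733 bp and the other top peaks 767, 1504, 561 and 1376 bp. Peaks no wider than 1.1 times the shortest in their list made up 3, 2, 5 and 0 of the top 200 (1.5%, 1%, 2.5% and 0%), against 10.2%, 6.77%, 10.1% and 6.30% of all autosomal peaks. The median site width, averaged over the libraries that listed it, was 681 bp for the sites over 500 in all 4 lists and 1344 bp for the other sites in all 4 lists. At gene ends the 6 shared sites with lower folds had median widths of 875, 2011, 1060 and 1544 bp.

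**Figure D3:**
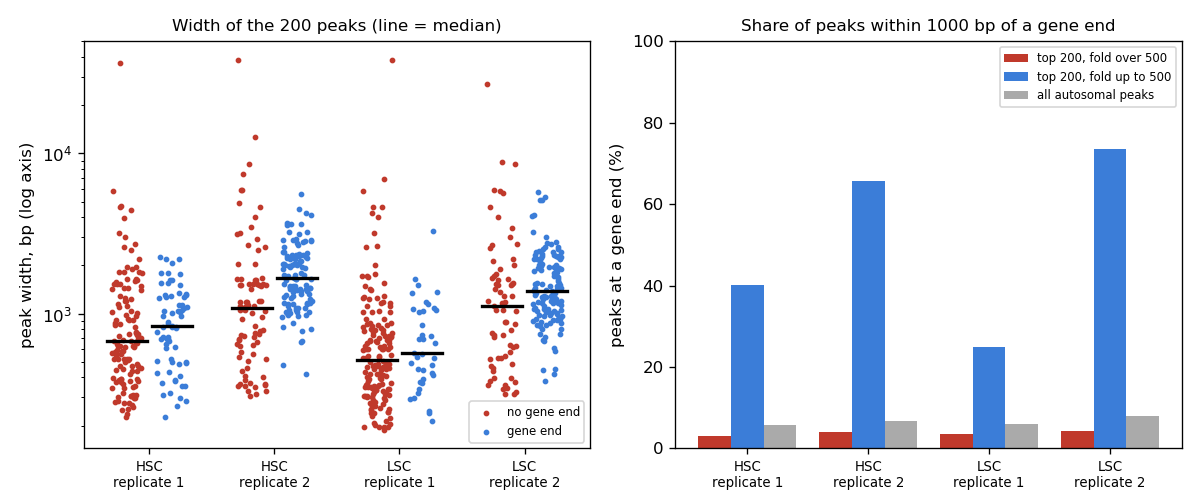
Left, width of each of the 200 peaks (log axis) by library, split by whether a gene end lies within 1000 bp, with black lines at the medians; right, share of peaks at a gene end for top peaks over 500 (red), top peaks up to 500 (blue) and all autosomal peaks (grey). The replicate 2 libraries have the wider top peaks, and the blue bars are 40.1%, 65.7%, 24.8% and 73.4%.

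The 6 gene-end sites with lower folds in all 4 lists were at 9 genes. At Eif5a, a translation factor that carries the modified residue hypusine, chr11:69920936-69923255 had 96.5, 122, 202 and 189. At the start of Eif4a1, the RNA helicase of translation initiation, next to the SUMO protease gene Senp3, chr11:69670826-69672883 had 102, 79.9, 229 and 97.6. At Zfp143, a zinc finger factor that binds promoters, chr7:110059343-110062206 had 98.1, 65.9, 168 and 110. LSC replicate 1 was highest at all 6 sites, as it was at the extreme sites, and the fold of rank 200 is highest in that library too.

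The other 3 of these sites had like levels. Between Prr14, which encodes a nuclear tether of heterochromatin, and Fbrs, whose product is found in Polycomb complexes, chr7:127477096-127479102 had 145, 107, 170 and 144. At Dcaf11, a substrate receptor of a ubiquitin ligase, chr14:55559733-55561433 had 115, 82.9, 155 and 93.6. At the shared start region of Fam72a and Srgap2, which encodes a GTPase-activating protein, chr1:131526450-131528470 had 115, 97.1, 148 and 148.

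At 5 of these 6 sites the summits lay within 300 bp of a listed start in every library. For Srgap2 they were 164 to 183 bp upstream of its start in the 4 libraries. The Dcaf11 summits were 194 to 299 bp upstream of a listed start. Those of Zfp143 were at 46, -140, -40 and -119 bp from a listed start, with negative values upstream, and those of Eif4a1 were at -182, -41, -9 and -69 bp. The Eif5a summits were at -108, -30, -213 and 1 bp. Fbrs was the exception, with summits at -240, -1092, -1057 and -883 bp from its listed start. Within 300 bp of a listed start lay 50.0%, 52.6%, 50.0% and 59.7% of the summits of top peaks at a gene end, chromosome 18 left out. Among all autosomal peaks at a gene end the share was 19.1%, 20.8%, 19% and 23.4%. The start table does not hold every gene, so a missing start counts as far.

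**Figure D4:**
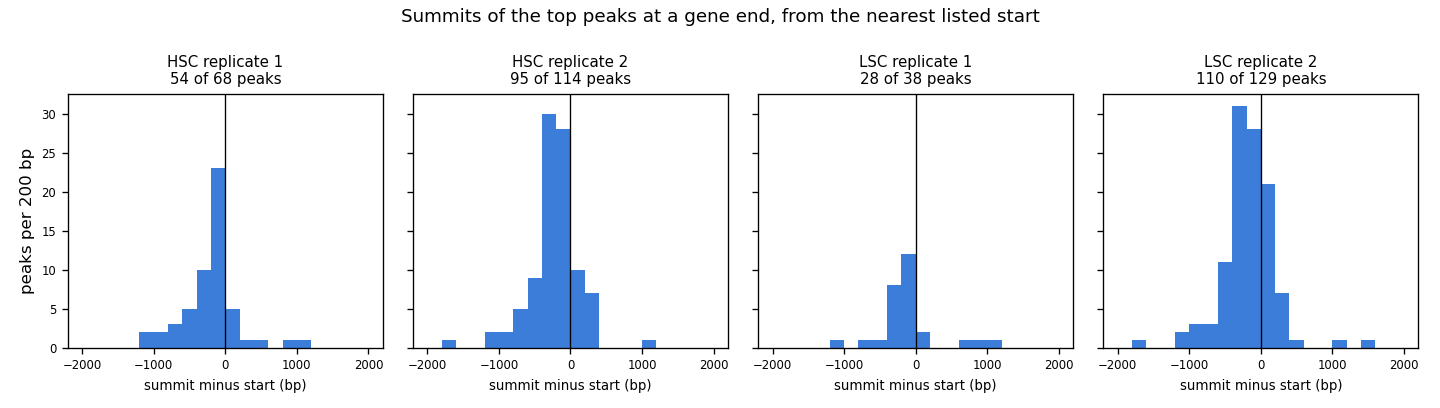
Distance from the nearest listed gene start to the summit, in bp with upstream negative, for top peaks at a gene end in each library (chromosome 18 left out); the 54 of 68, 95 of 114, 28 of 38 and 110 of 129 peaks within 2000 bp are drawn. In each library most peaks fall just upstream of the start.

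Promoters at the sites had a higher median GC content than all promoters, and the shares with a motif are given beside those of all promoters. Whether GC content sets these shares was not tested. The median GC content was 57.0% over 20085 promoters of 300 bp, and 59.3%, 62.3% and 61.7% over those overlapped by sites in all 4, in 2 or 3 and in 1 list (13, 97 and 185 promoters, some of them alternative starts of 1 gene). The SP/KLF box was found on either strand in 47.0% of all promoters and in 61.5%, 74.2% and 70.8% of these. The CCAAT box was found in 38.1% of all, and in 46.2%, 60.8% and 50.8%. The ETS core (CCGGAAG) was found in 11.9% of all, and in 0, 10.3% and 21.1%. The TATA box (TATAAA) was found in 12.7% of all, and in 0, 6.19% and 5.41%. The E-box was found in 7.89% of all, and in 4 of the 13, in 12.4% and in 9.19%. The 4 include overlapping Eif5a promoters that hold the same E-box. The YY1 core was found in 3.06% of all, and in 7.69%, 7.22% and 10.3%, and the other motifs are given with the further values at the end.

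Sites in 3 lists were mostly gene ends when LSC replicate 1 was the library that lacked them. Of 23 sites in all lists except that of LSC replicate 1, 20 were at a gene end and none had a fold over 500. Where HSC replicate 1 was the library that lacked them, 5 of 8 were at a gene end and 3 had a fold over 500. Of the 8 in all lists except that of LSC replicate 2, none was at a gene end and 4 had a fold over 500. The best ranked of these 8 was chr16:93788977-93789412 in the body of Dop1b, with 1268, 716 and 3180 and no peak in LSC replicate 2. Within Greb1, an estrogen-responsive gene, chr12:16747508-16748566 had 417, 170 and 1183 and no peak in LSC replicate 2. The intergenic site chr8:83756167-83756995, 14856 bp from Adgre5, had 418, 2584 and 1070, again without one.

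The remaining well ranked sites in 3 lists were missing from an HSC list. At the right-hand end of Lars2, the mitochondrial leucyl-tRNA synthetase gene, chr9:123461777-123462206 had 26.2, 173, 991 and 147. The site chr11:109011637-109012297, 60854 bp from Axin2, had 40.2, 191, 617 and 209. The site chr2:57629491-57630379 had 648, 1759 and 279 and no peak in HSC replicate 2. At Lars2 and the Axin2 neighbour, HSC replicate 1 was the low library and HSC replicate 2 was like LSC replicate 2.

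The 3-list sites at gene ends included members of the splicing factor and zinc finger lists. At the joint start region of Hnrnpa2b1, an RNA-binding splicing factor, and Cbx3, a heterochromatin protein, chr6:51468192-51471015 had 232, 90.6, 130 and 128. At Hnrnpul2 and Ttc9c, chr19:8818726-8820205 had 135, 97.5, 73.9 and 158. At Zfp687, chr3:95014050-95017290 had 96.2, 89.6, 85.6 and 147. At Zbtb20, chr16:42874589-42875974 had 43.5, 77.3, 195 and 94.7. All 24 gene-end sites of this group with a fold of 500 or less had a peak in all 4 full lists, with medians of 108, 86.8, 92.5 and 132, so each was left out of a list by its rank there and not for want of a peak.

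**Figure D5:**
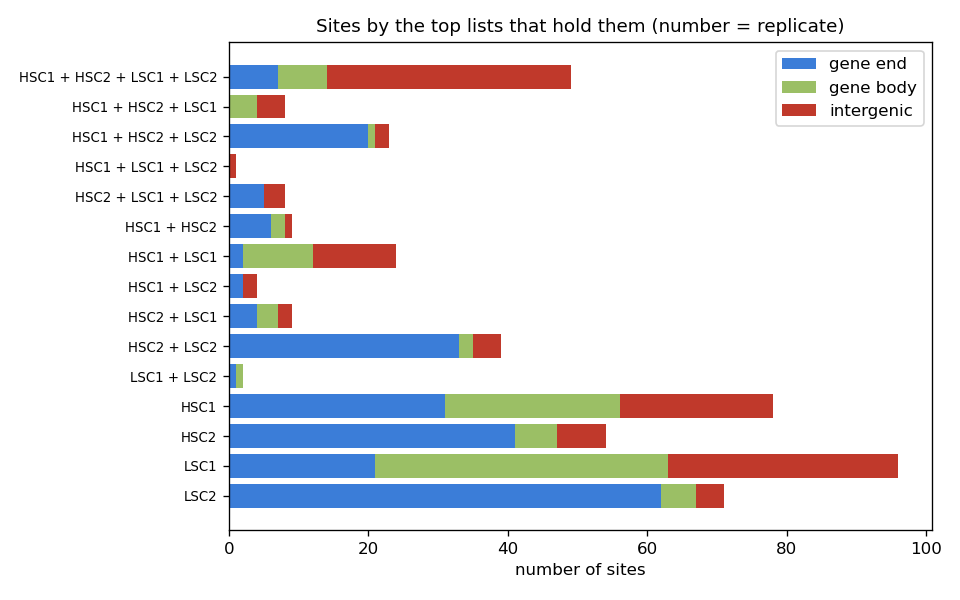
Number of sites by the set of top lists that hold them, coloured by position at a gene end, in a gene body or between protein-coding genes. The bars for HSC1 + HSC2 (9 sites) and LSC1 + LSC2 (2 sites) are short, and that for HSC2 + LSC2 (39 sites) is mostly gene ends while that for HSC1 + LSC1 (24 sites) is mostly not.

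Few sites were in the lists of 1 cell type alone. Only 2 were in both LSC lists and no HSC list, and 9 were in both HSC lists and no LSC list. By comparison 24 were in both replicate 1 lists alone and 39 in both replicate 2 lists alone. The most sites, 119, were shared by HSC replicate 2 and LSC replicate 2 (59.8% and 60.4% of their sites), and the fewest, 60, by LSC replicates 1 and 2 (30.5% of each). HSC replicates 1 and 2 shared 89 (45.4% and 44.7%). The lists are set by rank in each library, so these counts describe membership and not a difference in binding.

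The LSC-only sites were at Frat2 and Gphn. At Frat2, whose product binds the kinase GSK3, chr19:41847987-41848984 had 39.1 and 34.6 in HSCs and 211 and 90.8 in LSCs. In the body of Gphn, which encodes the scaffold protein gephyrin, chr12:78350865-78351186 had 13.4 and 29.4 in HSCs and 300 and 88.1 in LSCs. The groups did not overlap at either site, and the membership rule requires values of this kind. Both sites had a peak in all 4 full lists.

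The best ranked HSC-only sites did not differ in fold from LSCs in a uniform way. Within Plcb4, a phospholipase C gene, chr2:135988475-135989521 had 193 and 116 in HSCs, 98.6 in LSC replicate 1 and no peak in LSC replicate 2. At Zc3h4, a zinc finger gene that restrains noncoding transcription, chr7:16398320-16401201 had 165 and 71.7 in HSCs and 69.7 and 71.8 in LSCs, so the groups overlapped. At Nfatc3, a calcium-responsive transcription factor gene, chr8:106058559-106059572 had 119 and 71.5 against 59.5 and 55.3. The site in Tex14 and the one at Pxn and Sirt4 had 106 and 82.7 against 53.8 and 71.2, and 100 and 78.2 against 36.8 and 65. Of the 9 sites, 8 had a peak in all 4 full lists.

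Sites shared by replicate number alone differed in kind, as did the whole top lists. Of the 39 in both replicate 2 lists alone, 33 were at a gene end (84.6%), and of the 24 in both replicate 1 lists alone, 2 were (8.33%). The whole replicate 2 lists had 58% (HSC) and 65.5% (LSC) at a gene end, and the replicate 1 lists 34% and 19%. For sites in a single list the shares were 75.9% and 87.3% in replicate 2, and 39.7% and 21.9% in replicate 1. At Cic, a transcriptional repressor gene, chr7:25266330-25270090 had 122 and 178 in the replicate 2 libraries and 50.0 and 73.0 in the replicate 1 libraries. At Cdca3 and Usp5, chr6:124828469-124830567 had 120 and 179 against 84.5 and 100.7. Within Flt1, a VEGF receptor gene, chr5:147611032-147611785 had 286 and 418 in replicate 2, 47.8 in LSC replicate 1 and no peak in HSC replicate 1. Near Cdkn2a, the gene of p16 and p19ARF, 9385 bp away, chr4:89264700-89265088 had 291 and 427 in replicate 1, 24.1 in HSC replicate 2 and no peak in LSC replicate 2.

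The cell types could not be separated on either measure that the selection did not use. The share of the top 200 at a gene end was 46.0 ± 17.0% in HSCs and 42.3 ± 32.9% in LSCs (SD, n = 2 each), a difference of -3.75 percentage points (exact two-sided permutation test, p = 1). The median width was 1088 ± 536 bp in HSCs and 913 ± 538 bp in LSCs, a difference of -175 bp (exact two-sided permutation test, p = 0.667). With 2 libraries against 2, the smallest p this test can give is 0.333. Within replicate 1 the share differed by -15.0 points and within replicate 2 by 7.5 points, and the width by -177 and -173 bp. Replicate 2 libraries exceeded replicate 1 libraries by 35.3 points and 760 bp on average, values that are larger than either cell type difference and that were not tested. Over all autosomal peaks, median widths were also larger in replicate 2 (462 and 453 bp) than in replicate 1 (394 and 333 bp). The shortest autosomal peak was 291 and 281 bp wide in replicate 2, and 224 and 180 bp in replicate 1. Without HSC replicate 2 the share and width differences were 8.25 points and 204 bp, and without LSC replicate 1 they were 19.5 points and 206 bp. Both signs thus changed in these settings, which leave the replicate numbers unequal between the cell types. The width difference was negative within both replicate numbers, and the share difference was not.

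Most gene-end sites of a single list had a peak in each of the other libraries. Of the 62 gene-end sites of LSC replicate 2 alone, all 62 had a peak in HSC replicate 2, 48 in HSC replicate 1 and 50 in LSC replicate 1. The 71 sites of that library ranked at a median of 408 in HSC replicate 2, with 56 of them among its first 1000. LSC replicate 1 alone held 96 sites, of which 21 were at a gene end. Of the 75 others, 37, 47 and 38 had a peak in HSC replicate 1, HSC replicate 2 and LSC replicate 2. Only 29 of all 299 sites had a peak in a single full list, and 17 of those were in LSC replicate 1.

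LSC replicate 1 alone held all 7 single-list sites with a fold over 500. At 4 of them no other library had a peak: in Pde1c, at chr3:87424513-87425218 near Fcrl5 (695), at chr16:5709056-5709259 (643) and at chr5:80500876-80501339 (570). At the lncRNA Gm15564, chr16:35981603-35981816 had 1103 in LSC replicate 1, 49.2 and 44.3 in the replicate 2 libraries and no peak in HSC replicate 1. At the lncRNA Gm46595, chr17:70963639-70963904 had 655 and, in HSC replicate 1, 33.1.

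Outside these, HSC replicate 2 and LSC replicate 1 alone shared 3 sites over 500. The site chr3:5860316-5860839 had 88.0 in HSC replicate 2 and 1201 in LSC replicate 1, with 56.3 and 50.6 in the other libraries. In the overlapping genes Cmss1 and Filip1l, chr16:57390053-57392222 had 26.8, 75.4, 783 and 80.3. On chromosome 18, chr18:48010413-48010777 had 125 and 716 and no peak in the others. In each case only LSC replicate 1 passed 500. The same was true of the 3-list site chr9:115350192-115350966, 39724 bp from Stt3b, with 110, 1073 and 185 and no peak in HSC replicate 1.

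The highest of the single-list sites show this contrast. In the body of Abhd6, a monoacylglycerol lipase gene, chr14:8005521-8006200 had 1992 in LSC replicate 1, 61.9 in HSC replicate 2 and no peak in the others. Within Pde1c, a cyclic nucleotide phosphodiesterase gene, chr6:56233556-56233750 had 756 in LSC replicate 1 and no peak elsewhere. In the body of Ror2, a Wnt receptor gene, chr13:53269719-53269995 had 290 in HSC replicate 1 and no peak elsewhere. The intergenic site chr13:116192743-116193321 had 449 in HSC replicate 2 and no peak elsewhere. In LSC replicate 2 the highest were the body of Adssl1 with 157, the ends of Cyhr1 and Kifc2 with 143 and the end of Clec11a, a growth factor gene of the bone marrow, with 142. All 3 of these had a peak in both HSC lists and in LSC replicate 1.

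Genes at the sites were compared with lists of genes by function. Of 20665 autosomal protein-coding genes, 322 (1.56%) had a site at an end. Ruvbl2 chromatin complexes had 3 of 32 (9.38%), splicing factors 5 of 55 (9.09%) and ferroptosis and iron genes 2 of 31 (6.45%). Replication genes had 1 of 19, histones 3 of 62 (4.84%), chaperones 4 of 85 (4.71%), proteasome genes 2 of 47 (4.26%) and translation factors 3 of 71 (4.23%). Cytosolic ribosomal proteins had 3 of 79 (3.80%), nucleoporins 1 of 28, zinc finger genes 10 of 450 (2.22%) and oxidative phosphorylation genes 2 of 94 (2.13%). No test was made of these counts, most of which are 5 or fewer genes.

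The members of the Ruvbl2 complexes were found in different lists. Srcap, the ATPase of the complex of that name, had 75.4, 77.1, 28.7 and 90.6 at chr7:127510680-127512430, which was in both replicate 2 lists. Ep400, the ATPase of the p400 complex, had 25.1, 41.4, 158 and 71.8 at chr5:110770860-110771074, in the LSC replicate 1 list. Znhit1, a SRCAP subunit, had 105, 12, 11 and 39.4 at chr5:136986338-136987033, in the HSC replicate 1 list. Nup54, the nucleoporin with a site, had 96.8, 11 and 62.4 with no peak in LSC replicate 2. Only Srcap was shared by a pair of lists.

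Members of other lists were Nfe2l2, the regulator of antioxidant genes, with 63.1, 65.5, 107 and 75.2, and Slc3a2, the heavy chain of the cystine transporter, with 21.3, 58.2, 45.8 and 104. The pair H2ac19 and H3c15 had 38.5, 54.6, 151 and 82.6, and the replication helicase gene Mcm4 had 11.8, 67.4, 103 and 56.8. Of these, Mcm4 and Nfe2l2 had their highest fold in LSC replicate 1 but entered the HSC replicate 2 list, since the rank limits differ. No site was at an end of the 24 MLL fusion targets, 14 stem cell markers, 16 myeloid markers, 19 immediate early genes, 18 aminoacyl-tRNA synthetases or 1453 olfactory and vomeronasal receptors. The markers of other cells, 5 of B cells, 7 of T and NK cells, 7 of erythroid cells and megakaryocytes and 6 of stroma, had none either.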

How the data were processed

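Ruvbl2 CUT&Tag peak lists of 2 HSC and 2 LSC libraries were analysed, grouped by their titles. Per the submitters' processing notes, FastQC 0.11.5, Bowtie2 2.2.9, MACS2 and ChIPseeker were used with the build mm10, and peaks are in the deposited files per library. The deposited values are a display score, a linear fold (ratio), the −log10 p and −log10 q of each peak, and a summit offset (bp) from the peak's start. No reads or totals per library were used. The fold, p and summit were used as the authors' own peak values.

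Records of 1 interval were to be collapsed to the best, but 0 such repeats were found. Peaks on chromosomes 1 to 19 were ranked by fold, with ties ordered by p and position, and 200 per library were merged by 1 bp. Pileups were obtained from the fold steps, since 100% of values below a fold of 150 were whole within 0.05. Gene ends were within 1000 bp of either end of a protein-coding gene in a RefSeq table (GRCm38.p6). The 45 promoters of sites in 3 or 4 lists, motifs and miRNAs came from RefSeq tables.

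A few marker genes are not reported here. Members and lists were chosen with earlier results of these data known. Named sites were up to 20 in all 4 lists by worst rank, sites over 500, the 6 best in 3 lists, up to 5 per cell type, 4 per replicate number, 3 per single list and up to 4 per gene list. The other sites in all 4 lists with folds up to 500 that are named (at Fbrs, Dcaf11, Srgap2, Igh, Ly6c2, Sfi1, Mepe, Ppp1r9a, Myo3a, Cr2, Eapp and 9230019H11Rik) and the miRNA sites were chosen after their values were seen. Library measures were compared by an exact permutation test, 2 against 2. The replicate numbers share a naming scheme of peaks but no stated mouse or day, so the main test did not use them as pairs. They were used as pairs only for the differences within replicate numbers and for the alternative with a replicate block. Scripts were tested on simulated data. Python 3.11.15, pandas 2.3.3, NumPy 2.4.6, SciPy 1.17.1 and matplotlib 3.10.9 were used. Intervals cover counting error only.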

Additional observations from a re-analysis of the deposited data

Results flagged for a closer look

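Peaks outside chromosomes 1 to 19 were not ranked, but some exceeded the fold of rank 200 of their own library. The HSC libraries had 15 and 11 of them (replicates 1 and 2) and the LSC libraries 16 and 10. Each count includes 1 peak on the mitochondrial chromosome. Chromosome X gave 4, 4, 5 and 5, chromosome Y gave 0, and unplaced or other sequences gave 10, 6, 10 and 4. With no control library to set a level, they are given as counts.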

How the results depend on the processing

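Of 155 recomputed values (12 results under 18 alternatives), 113 kept their direction and size, 38 moved and 4 changed sign. The alternative that ranked peaks by −log10 p gave the main values throughout. Where checked, p followed from the same pileup as the fold, so that agreement was fixed in advance and carries no weight. Sites in both LSC lists only numbered 1 with 100 peaks per library, 12 with 500, 1 with chromosomes X and Y kept and 4 without peaks over 500. HSC-only sites numbered 2 with 100 and 22 with 500. Sites in all 4 lists numbered 18 without peaks over 500, and 13 without sites over 500, most distal or within 3.5 Mb of the start, an alternative chosen after seeing the data. The share of shared sites at a gene end was 2.70% with 100 peaks, 26.8% with 500, 38.9% without peaks over 500, 32.7% with gene ends of every type and 46.2% in the alternative chosen after seeing the data. Keeping all peaks tied at rank 200, also chosen after seeing the data, gave 11 HSC-only sites.

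With each library left out in turn, sites in the LSC lists only ranged from 3 to 98, those in the HSC lists only from 17 to 87, and the shared gene-end share from 12.1 to 37.5%, the latter without LSC replicate 1. The highest counts come from settings in which a group is left with 1 list. The gene-end share difference ranged from -27.0 to 19.5 points and changed sign without HSC replicate 2 (8.25) and LSC replicate 1 (19.5). The width difference ranged from -555.5 to 206 bp and changed sign without HSC replicate 2 (204) and LSC replicate 1 (206). With a library left out, a group held only 1 library, so these settings are given as differences only.

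With a replicate block, the gene-end difference was -3.75 points (exact sign-flip p = 1) and the width difference -175 bp (exact sign-flip p = 0.5). With so few pairs, 0.5 is the smallest p the sign-flip test can give, so it could not separate the cell types. Under the other alternatives, leave-one-out aside, these differences were -4.75 to -0.5 points and -180 to -55.8 bp. A fold is relative to its own library's background, so which library is highest or lowest at a site may reflect that scale, and no test was made of it.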

Other observations

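The other motifs searched on both strands of the 300 bp promoters were the NRF1 site (GCGCATGC), in 3.55% of all promoters and in 0, 8.25% and 5.95% of those at sites in all 4, in 2 or 3 and in 1 list, and the CRE (TGACGTCA), in 2.30% and in 0, 4.12% and 2.16%. A ZNF143 core (ACTACAA), added after Zfp143 had been seen among the shared sites, was in 3.71% of all and in 0, 4.12% and 3.24%. The Zfp143 promoter itself did not hold these letters.

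Annotated miRNAs overlapped 3 of the sites for which the sequence table had an entry. At Akt1s1 and Tbc1d17 (chr7:44847302-44852413; 103, 97.3, 66.6 and 132) the site covered Mir707. Sites also covered Mir191, a miRNA abundant in blood cells, with a highest fold of 155, and Mir6236, with a highest fold of 276. Mature sequences follow with the seed, bases 2 to 8, in capitals, to identify these miRNAs.
mmu-miR-707: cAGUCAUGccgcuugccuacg
mmu-miR-191-5p: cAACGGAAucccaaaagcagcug
mmu-miR-6236: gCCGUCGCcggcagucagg
The 3 seeds differ.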
